A study of Mus musculus with 4 samples.

Results

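The 60 genes described here lie on mouse chromosome 3, from Tpd52 near its start to Usp33 near its end, and were followed in NF639 cells, a mouse mammary tumour line that carries the ErbB2 (Her-2/neu) oncogene. The 2 arrays of the group Original hold RNA of the line's original population, and the 2 arrays of the group Resistant hold RNA of a pool of NF639 cells that resist epigallocatechin 3-gallate (EGCG), an abundant catechin of green tea. No genetic change is named for either group, the resistant cells are 1 pool and not separate clones, and neither a dose of EGCG nor its presence at harvest is given in the labels. Per the series' design text the RNA came from independent experiments. The members were taken from a list of chromosome 3 genes drawn up because runs of neighbouring genes there had read lower in the resistant pool, so the members were chosen by the difference in signal between the groups, which is given below as a description that supports nothing further. Each gene is represented by the probe set with 1 gene symbol that had the highest mean signal over the 4 arrays. All 60 genes were found, among 630 genes of chromosome 3 on the array, and all 60 had a probe set above the filter on dim signals, among 7510 such genes in all (hereafter measured genes).

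Neighbouring genes on a chromosome share the number of copies of that stretch of DNA in a cell, and often its chromatin state and time of replication. Their products need have nothing in common, and these 60 genes encode proteins as different as fatty acid carriers, kinases, splicing factors and nuclear lamins. An expression array reports the RNA of each gene and neither the DNA nor the chromatin, which were not measured here. The genes are taken in chromosome order, in 7 stretches named by their end genes.

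Promoter windows in RefSeq (build GRCm38.p6), each 300 bases long and reaching from 250 bases before to 50 after an annotated start, matched 40 of the 60 genes with 58 windows. The 12 members from Tpd52 to Pde7a had no window, among them E2f5, whose log2 difference (-0.79) was lower than those of Noct and Fubp1. S1pr1, the highest of all members (0.31), had no window either. The windows of the 3 matched members with the lowest difference between the groups, Mccc1, Noct and Fubp1, and of the matched member with the highest, Ptx3, are shown to set promoters from both ends of the range side by side. They lie at chr3:36000629-36000928 (minus strand) for Mccc1, chr3:51224197-51224496 (plus strand) for Noct, chr3:152210172-152210471 (plus strand) for Fubp1 and chr3:66219637-66219936 (plus strand) for Ptx3. Each is written 5′ to 3′ on the gene's strand, and capitals mark matches to CCAAT or GGGCGG on either strand (ATTGG and CCGCCC when read from the other strand).
Mccc1: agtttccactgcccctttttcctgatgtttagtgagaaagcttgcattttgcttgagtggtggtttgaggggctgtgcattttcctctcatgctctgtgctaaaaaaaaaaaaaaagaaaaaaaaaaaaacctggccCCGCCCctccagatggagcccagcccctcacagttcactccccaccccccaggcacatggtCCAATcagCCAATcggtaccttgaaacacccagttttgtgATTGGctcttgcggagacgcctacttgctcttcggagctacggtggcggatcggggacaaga
Noct: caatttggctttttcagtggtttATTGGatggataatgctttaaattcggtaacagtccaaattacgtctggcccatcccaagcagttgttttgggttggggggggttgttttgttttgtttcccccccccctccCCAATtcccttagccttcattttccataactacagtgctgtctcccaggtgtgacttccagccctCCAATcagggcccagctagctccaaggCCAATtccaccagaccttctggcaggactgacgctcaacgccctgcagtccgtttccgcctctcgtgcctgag
Fubp1: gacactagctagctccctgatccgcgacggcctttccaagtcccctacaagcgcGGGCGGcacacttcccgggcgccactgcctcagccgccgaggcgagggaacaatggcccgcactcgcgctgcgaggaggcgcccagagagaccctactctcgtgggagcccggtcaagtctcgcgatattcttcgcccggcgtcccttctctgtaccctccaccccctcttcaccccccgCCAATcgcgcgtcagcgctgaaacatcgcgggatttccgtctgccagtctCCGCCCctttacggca
Ptx3: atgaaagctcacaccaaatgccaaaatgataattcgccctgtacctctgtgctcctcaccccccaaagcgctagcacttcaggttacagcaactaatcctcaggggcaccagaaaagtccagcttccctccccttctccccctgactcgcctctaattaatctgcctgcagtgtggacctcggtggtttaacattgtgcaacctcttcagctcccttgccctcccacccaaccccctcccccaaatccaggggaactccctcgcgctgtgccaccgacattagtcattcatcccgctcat
Mccc1 had 3 matches to CCAAT and 1 to GGGCGG, Noct 4 and 0, Fubp1 1 and 2, and Ptx3 none of either. TATAAA, searched on both strands, was in none of these 4 windows. The windows also differed in CpG content: the ratio of observed to expected CpG was 1.05 in Fubp1, 0.419 in Mccc1, 0.355 in Noct and 0.431 in Ptx3, so that windows low in CpG came from both ends of the range. Over all 58 windows of the 40 matched members the ratio was above 0.6 in 69% and the median GC content was 62.8%. The 358 windows of the other measured genes of chromosome 3 gave 69.8% and 59.7%, against 35.8% and 52.7% in all 32851 windows of the table, which include many genes not on the array. CCAAT was found in 31% of the members' windows, 38% of those of the other measured chromosome 3 genes and 37.4% of all windows. GGGCGG was found in 70.7%, 58.9% and 35.7%, and TATAAA in 5.17%, 8.94% and 13.6%. A match is a string of letters in a window, and no binding was measured.

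Signals are MAS5 intensities, 1 per probe set and array, in which a dim probe set carries a large relative error, and precision is limited by having few arrays. By spiked bacterial controls (BioB, BioC and BioDn, added to the hybridisation mix) the arrays split by replicate number, not by group: all 7 control probe sets were 1.39 to 2.11 times brighter on the second original array than on the first and 1.48 to 2.29 times brighter on the second resistant array. Differences are therefore also given between arrays of the same number. The second original array stood apart in 18S ribosomal RNA, with 4005.3 at its 5′ probe set against 346.7 to 624.3 on the other arrays. Of 6 luminal epithelial markers Erbb2 alone was above the filter, at 280.7 to 326.2 on the 4 arrays, while Krt8, Krt18, Krt19, Epcam and Cdh1 lay between 1.4 and 62.9, so that defining keratins and the cadherin of luminal epithelium were near the floor in both groups. All 4 fibroblast markers were above the filter, with summed signals of 3009.2 and 1628.3 among the originals and 3892.4 and 2053.5 among the resistant arrays. These sums overlap, but Dcn was separate and lower (729.1 and 136.7 against 124.9 and 37.9) and Col1a1 separate and higher (172.5 and 164.4 against 277.3 and 412.1), while Pdgfra and Pdgfrb overlapped. Neither Dcn nor Col1a1 passed the test over all probe sets. The basal epithelial sums, with 0 of 3 markers above the filter, did not overlap, at 66.4 and 92.1 against 132.4 and 212.8. Leukocyte sums were 142.8 and 126.6 against 157.7 and 124.8 (1 of the 4 markers on the array above the filter), endothelial sums 38.2 and 69.4 against 47.9 and 31.8 (0 of 4) and adipocyte sums 17.6 and 32.1 against 28.8 and 22.1 (0 of 2). No marker was at 0 on any array, and the part of these markers in the differences described below was not tested.

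As a set, 54 of the 60 genes had a lower mean in the resistant pool, with a median log2 difference (resistant minus original, on log2(signal + 3)) of -0.33, a ratio of 0.793. Over all 7510 measured genes the median was 0.02 and 47.2% were below 0. In RNA of whole cultures, fewer cells that express a gene and less RNA per cell cannot be told apart. The members' differences ran from -0.95 for Mccc1 to 0.31 for S1pr1, with an interquartile range from -0.52 to -0.25. The resistant mean was more than 1.2-fold lower for 40 members and more than 1.5-fold lower for 12, against 16.5% and 3.97% of all measured genes, and none was lower by more than 2-fold. Both resistant arrays read below both original arrays for 39 members (65%), and for 0 members above both. Over all 13576 tested probe sets 18.3% were lower in this sense and 17.7% higher. Because this difference chose the genes, nothing is read from these counts.

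No single member passed the test over all probe sets (limma, Benjamini-Hochberg adjusted p under 0.05), which called 0.169% of probe sets in either direction and 0.11% lower. At an unadjusted p under 0.05 there were 15 members lower and 0 higher, where 3.92% of all probe sets were lower and 3.43% higher. When the fit held the replicate block, 12 members passed, all lower, where 3% of all probe sets were called lower and 2.23% higher. These were Pag1, E2f5, Mtfr1, Gyg, Prkci, Mccc1, Anxa5, Hspa4l, Noct, Bcas2, Ampd2 and Fubp1. In the fit with the block, p-values rested on a spread pooled across probe sets, not on each gene's own arrays. The difference tested is also the one that chose the members, so these 12 are not read as genes shown to differ. The differences of single members are thus given as values, each with the standard error (SE) of limma's fit, and "lower" and "higher" describe the means of these arrays.

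The arrays contributed unequally. Among the 4 arrays the second resistant array had the lowest signal for 36 members and the first resistant array for 17, leaving 7 to the original arrays. The highest signal was on an original array for 54. Relative to each gene's mean over the 4 arrays, the members' median was 0.19 and 0.18 log2 units for the originals, against -0.08 and -0.25 among the resistant arrays. Between arrays numbered 1 the median difference was -0.25 and between arrays numbered 2 it was -0.46, and 47 of the 60 genes were lower in the resistant array of both numbers, as were 27.7% of all measured genes. The median was -0.24 without the second resistant array and -0.46 without the first, and -0.38 without the second original array.

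**Figure D1:**
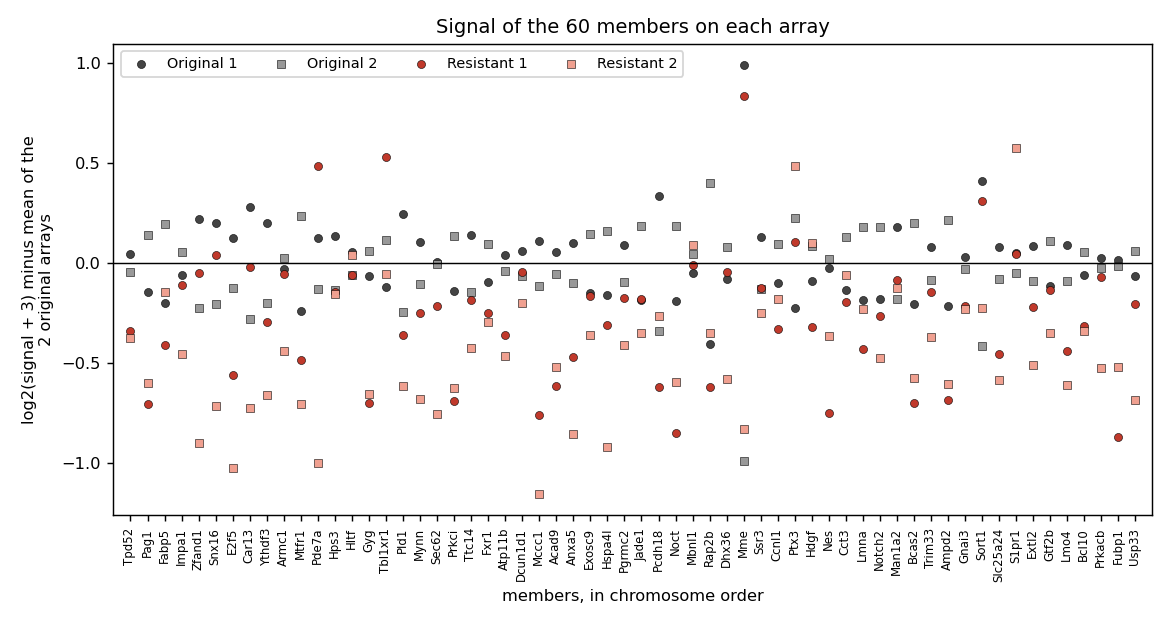
Signal of each of the 60 genes on each array, as log2(signal + 3) minus the mean of the 2 original arrays, with genes in chromosome order. Red points (resistant) lie below grey points (original) for 39 genes, Mme splits by replicate number, and the second resistant array (light squares) is the lowest of the 4 for 36 genes.

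The first stretch, Tpd52 to Pde7a, held 12 members, all with a lower mean in the resistant pool and a median of -0.37, and no other measured gene lay between its ends. The size rested among the resistant arrays, at -0.68 without the first of them and -0.20 without the second. E2f5, which encodes a repressive E2F transcription factor, had signals of 426.4 and 358.2 among the originals and 264.7 and 190.9 among the resistant arrays, a log2 difference of -0.79 ± 0.256 (SE). Pag1, a membrane adaptor that recruits the kinase Csk to restrain Src-family kinases, had 385.3 and 470 against 260.4 and 279.9 (-0.65 ± 0.23 SE). Both genes had separate groups, with every resistant array below every original one. Mtfr1, a regulator of mitochondrial fission, read 612.1 and 851.6 against 516.2 and 441.7 on the probe set used. Most of that difference of -0.59 came from the arrays numbered 2 (-0.94, against -0.25 for those numbered 1). Its other probe set (-0.38) split the other way, at -0.51 between arrays numbered 1 and -0.25 between those numbered 2. Ythdf3, a reader of N6-methyladenosine in RNA, read 872 and 659.3 against 618.1 and 479.1, with -0.50 and -0.46 in the numbers. Its other probe sets gave smaller differences (-0.19 and -0.21). Tpd52, a trafficking protein often found at high levels in breast tumours, read 833.4 and 782.5 against 637.1 and 622.5, also without overlap, at -0.36 ± 0.183 (SE). Its other probe set overlapped, at 619.8 and 479.4 against 499.1 and 491.1 (-0.14).

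Fabp5, the epidermal fatty acid binding protein, was the brightest gene of this stretch. Its signals of 7767.5 and 10203.6 among the originals and 6700.4 and 8048.2 among the resistant arrays overlapped, yet it was lower in both numbers (-0.21 and -0.34). Impa1, the inositol monophosphatase, read 1347.5 and 1460 against 1301.2 and 1025, and Armc1, an armadillo-repeat protein of mitochondria, 1229.6 and 1275.5 against 1206.2 and 923.1. In both genes the first resistant array was close to the original ones (-0.05 and -0.03 between arrays numbered 1) and the second carried the difference (-0.51 and -0.47). The dimmer genes Zfand1, Snx16 (a sorting nexin of endosomes) and Car13 (a cytosolic carbonic anhydrase), with signals between 55.1 and 302.8, overlapped between the groups at differences of -0.47, -0.34 and -0.37. Pde7a, a phosphodiesterase that degrades cyclic AMP, went in opposite directions, at 293.6 and 245.7 against 377.4 and 132.9 (0.36 and -0.87 in the numbers), and 2 of its 4 probe sets were above 0 between the groups.

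The second stretch, Hps3 to Mccc1, held 13 members, 12 of them below 0, with a median of -0.41 (-0.25 without the second resistant array). Mccc1, a subunit of methylcrotonyl-CoA carboxylase, which breaks down leucine, had the lowest difference of all members, with 230.5 and 196.7 among the originals and 124.9 and 94.2 among the resistant arrays (-0.95 ± 0.3 SE; -0.68 with a pseudocount of 64, since its signals are dim). Gyg, glycogenin, the primer of glycogen synthesis, read 719 and 783.3 against 461 and 476.4 (-0.68 ± 0.192 SE). Prkci, an atypical protein kinase C of epithelial polarity, read 1535 and 1858.9 against 1049 and 1094.7 (-0.66 ± 0.176 SE). In these 3 genes the spread within each group was small beside the distance between the groups. A second probe set of Prkci gave -0.61.

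Sec62, a subunit of the protein translocation machinery of the endoplasmic reticulum, read 1745 and 1732 against 1498.5 and 1028.7, and all 4 of its probe sets were below 0, from -0.31 to -0.88. Mynn, a zinc finger protein, read 198.7 and 171.6 against 154.9 and 114.1, and its 5 retained probe sets lay between -0.38 and -1.25. Pld1, a phospholipase D, read 202.8 and 143.7 against 132.7 and 110.8 (-0.48), but its second retained probe set gave 0.27. The probe sets used for Sec62, Prkci, Pld1, Mynn, Tbl1xr1, Armc1, Bcas2 and Ampd2 are of the _s_at and _x_at kinds, which can bind more than 1 transcript.

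Among the RNA and membrane proteins of this stretch, Atp11b, a lipid flippase, read 603.4 and 570.5 against 457.6 and 425.4 (-0.41 ± 0.199 SE). Fxr1, an RNA-binding protein related to the fragile X protein, read 1459.6 and 1667.4 against 1313.2 and 1273.7 (-0.27 ± 0.17 SE). Its other probe set overlapped, at 639.5 and 646.3 against 598 and 684.9 (-0.01). On the probe sets used, Atp11b and Fxr1 were separate between the groups, as were Ttc14 (-0.31) and Hps3. Hps3, a subunit of a complex of lysosome-related organelles, had a small difference (-0.15, and -0.02 between arrays numbered 2). Dcun1d1, which promotes cullin neddylation, and Hltf, a DNA translocase of stalled replication forks, overlapped at -0.12 and -0.01. Tbl1xr1, a subunit of the NCoR and SMRT corepressor complexes, was the exception, with 642.8 and 756.1 against 1009.7 and 672.8. It was higher on the first resistant array alone (0.65 between arrays numbered 1, -0.17 between those numbered 2), and its 4 probe sets lay between 0.03 and 0.24. The 11 other measured genes between Hps3 and Mccc1 had a median of -0.26, from -1.09 for Gnb4 to 0.04 for Zmat3.

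The third stretch, Acad9 to Noct, had the lowest median of the 7, at -0.50 (-0.41 with a pseudocount of 64), and all 8 members were below 0. Without the first resistant array the first stretch was lower (-0.68 against -0.46), and so was the last, Gtf2b to Usp33. Noct, nocturnin, a rhythmically expressed phosphatase of NADP(H), read 522.4 and 677.8 among the originals and 329.7 and 393.3 among the resistant arrays (-0.72 ± 0.225 SE). Anxa5, annexin A5, which binds phosphatidylserine, was the brightest member here and read 3634.8 and 3166 against 2451.9 and 1879.2 (-0.66 ± 0.184 SE). Acad9, an acyl-CoA dehydrogenase needed to assemble respiratory complex I, read 260.4 and 241.3 against 163 and 174.3 (-0.57 ± 0.258 SE). None of these 3 overlapped, and each was lower in both numbers.

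Hspa4l, a chaperone of the Hsp110 family, read 995.1 and 1242.5 against 897.5 and 588.1, a difference that was -0.15 between arrays numbered 1 and -1.08 between those numbered 2. Exosc9, a subunit of the RNA exosome, read 957.9 and 1176.5 against 946.3 and 827.6, and likewise differed little in the first number (-0.02) and more in the second (-0.51). Jade1, a scaffold of histone acetyltransferase complexes, overlapped, with 694.4 and 899.2 against 698.1 and 619.1. Pgrmc2, a heme-binding membrane protein, was separate at 1637.4 and 1442.6 against 1362.6 and 1156.5, with -0.27 and -0.32 in the numbers. Pcdh18, a protocadherin, ran the other way from Hspa4l, with 474.6 and 296.3 against 243.1 and 312.5 (-0.96 between arrays numbered 1 and 0.07 between those numbered 2). The 10 other measured genes of this stretch had a median of -0.40, from -0.81 for 4932438A13Rik to 0.58 for the dim gene Sclt1.

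The fourth stretch, Mbnl1 to Ptx3, had the median nearest 0, at -0.19, and 4 of its 7 members were below 0. Without the second original or the first resistant array, and with the median over all probe sets of a gene, the stretch Hdgf to Lmna was nearer to 0 (-0.08, -0.14 and -0.17). Mbnl1, a regulator of alternative splicing, read 6879.5 and 7360 among the originals and 7084.7 and 7584.1 among the resistant arrays (0.04 in each number). Ssr3, a subunit of the translocon-associated protein complex, read 5056.7 and 4220.8 against 4236.9 and 3888.6 (-0.19). Ptx3, a secreted pentraxin of innate immunity, read 3372.7 and 4605.9 against 4245.2 and 5519.1, and it was higher in the resistant array of both numbers (0.33 and 0.26) although the groups overlapped. On the probe sets used, Ccnl1, a cyclin of transcription and splicing, was the 1 member here whose groups were separate. It read 1725.8 and 1974 against 1469.5 and 1628.6 (-0.26 ± 0.17 SE). Rap2b, a small GTPase, read 274.6 and 482.2 against 235.9 and 285 (-0.49), and Dhx36, a helicase that unwinds G-quadruplexes, 1522.9 and 1704.1 against 1564.8 and 1078.3 (-0.31). Both overlapped there, while the other retained probe sets of Rap2b (-0.47 and -0.65) and of Dhx36 (-0.27) were separate and lower.

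Mme, the membrane peptidase neprilysin, had the widest spread of all members and no difference between the group means (0.00 ± 0.593 SE). It read 2292.9 and 2063.5 on the arrays numbered 1 and 580.3 and 648.5 on those numbered 2, so that its signal followed the replicate number. A second probe set did the same, with 831.4 and 744.9 against 121.8 and 103.1. Between the ends of this stretch lay 3 other measured genes, with a median of -0.17, from Slc33a1 at -0.75 to Kcnab1 at 0.08. The median of the members was -0.04 without the second resistant array, -0.06 without the first original array and -0.25 without the first resistant array.

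The fifth stretch, Hdgf to Lmna, held 4 members with a median of -0.23. With so few genes single arrays moved it, to -0.08 without the second original, -0.14 without the first resistant, -0.39 without the first original and -0.38 without the second resistant array. Nes, nestin, an intermediate filament protein of progenitor cells, read 587.8 and 606.1 among the originals and 354.8 and 463.6 among the resistant arrays (-0.56 ± 0.216 SE). Lmna, which encodes the nuclear lamins A and C, read 5174.5 and 6669.6 against 4359.6 and 5018.4 (-0.33 ± 0.184 SE). Both were separate between the groups on the probe sets used. The other retained probe set of Nes was separate too (-0.74), while the other retained probe sets of Lmna overlapped (-0.28 and -0.15). Hdgf, a chromatin-binding growth factor, and Cct3, a subunit of the cytosolic chaperonin, overlapped at 3525.1 and 3981.1 against 2999.7 and 4024.1, and at 6060.5 and 7272.5 against 5805.5 and 6367.6 (-0.11 and -0.13). The 12 other measured genes between Hdgf and Lmna had a lower median than the members, at -0.41, with 11 below 0, from Naxe at -0.68 to Crabp2 at 0.05.

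The sixth stretch, Notch2 to Extl2, held 10 members, 8 of them below 0, with a median of -0.31. Ampd2, an AMP deaminase, read 1754.2 and 2366.5 among the originals and 1267 and 1338.8 among the resistant arrays (-0.65 ± 0.189 SE). Bcas2, a core component of the spliceosome, read 870.3 and 1153.9 against 615.7 and 673.1 (-0.64 ± 0.201 SE). Slc25a24, which carries ATP-magnesium and phosphate across the inner mitochondrial membrane, read 753 and 674.1 against 519.1 and 473.9, with nearly the same difference in both numbers (-0.53 and -0.51). On the probe sets used, these genes were separate between the groups by wide margins. The other probe set of Ampd2 was separate by less, at 509 and 549.9 against 410.6 and 460.2 (-0.28).

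Receptors and signalling genes of this stretch differed among themselves. Notch2, a receptor of the Notch pathway, read 882.9 and 1135.4 against 834 and 719.6, a difference of -0.08 in the first number and -0.66 in the second. Gnai3, an inhibitory G-protein alpha subunit, read 2385.1 and 2289 against 2016.4 and 1993.8, with a narrow spread and -0.24 and -0.20 in the numbers. S1pr1, a receptor for sphingosine-1-phosphate, had the highest difference of all members (0.31 ± 0.32 SE), from dim signals of 121.2 and 112.9 against 121.1 and 175.9, so that it rests on the second resistant array. Sort1, the sorting receptor sortilin, read 158.2 and 88.2 against 147.6 and 101 (0.04), and its other retained probe set gave -0.42. Trim33, a chromatin-binding ubiquitin ligase, and Extl2, a glycosyltransferase of the exostosin family, were separate and lower (-0.26 and -0.36), and Man1a2, a mannosidase of the Golgi, overlapped (-0.10). The 45 other measured genes from Notch2 to Extl2 had a median of -0.33, with 41 below 0, from -1.18 for Magi3 to 0.38 for Gstm1.

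In the last stretch, Gtf2b to Usp33, all 6 members were below 0, and the median was -0.39. On the probe sets used none overlapped between the groups, where 18.3% of all tested probe sets were separate and lower. This difference chose the genes, so nothing is read from that count. Fubp1, a single-strand DNA-binding protein that activates Myc transcription, read 928.1 and 909.3 among the originals and 502.1 and 640.1 among the resistant arrays (-0.69 ± 0.197 SE), and its 4 probe sets lay between -0.46 and -0.72. Lmo4, a LIM-domain cofactor expressed in mammary epithelium, read 284 and 250 against 195.9 and 173.7 (-0.52 ± 0.256 SE), with -0.53 and -0.52 in the numbers. Bcl10, an adaptor that links antigen and other receptors to NF-kappaB, read 809.7 and 876.9 against 676.4 and 665.3 (-0.33 ± 0.182 SE). Of the other three genes the second resistant array was the low one. Usp33, a deubiquitinase, read 433.3 and 472.2 against 392.7 and 280.3, Prkacb, a catalytic subunit of protein kinase A, 676.4 and 653.2 against 633.6 and 462.2, and Gtf2b, the general transcription factor TFIIB, 943.6 and 1104 against 930.5 and 802.2. The 11 other measured genes of this stretch were all below 0, with a median of -0.44, from Ccn1 at -1.10 to Dnajb4 at -0.13.

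**Figure D2:**
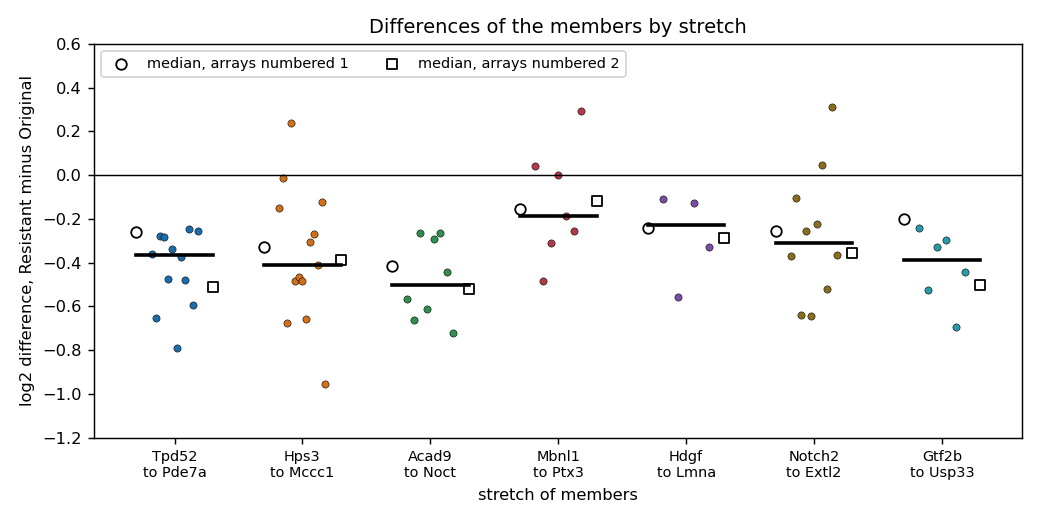
Log2 difference (resistant minus original) of each member by stretch, with the stretch median as a bar and the medians between arrays numbered 1 (circles) and numbered 2 (squares). Medians lie from -0.19 in Mbnl1 to Ptx3 to -0.50 in Acad9 to Noct, and in each stretch both numbers are below 0.

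Measured genes outside the stretches were lower as well. Chromosome 3 was taken up because runs of its genes had read lower in this same difference, so the values of these genes are a description too. Besides the members, 322 genes of chromosome 3 were measured, and their median was -0.30, with 84.2% below 0, close to the members' -0.33 and 90%. Of these 322, 92 lay between the ends of a stretch (median -0.33, 89.1% below 0) and 230 lay outside all stretches (median -0.28, 82.2% below 0). Groups were separate and lower for 55.3% of the 322 and separate and higher for 3.11%, beside 18.3% and 17.7% of all tested probe sets. None of them passed the test over all probe sets (limma, adjusted). At an unadjusted limma p under 0.05, 55 of the 322 were lower and 3 higher, where 3.92% of all probe sets were lower and 3.43% higher. When the fit held the replicate block, 40 of the 322 passed lower and 2 higher, beside the 12 and 0 of 60 members and the 3% and 2.23% of all probe sets given above. P-values of the fit with the block rest on the pooled spread here too. The label of the list speaks of runs, while the measured genes between the stretches leaned the same way as the members.

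Between the stretches the medians were -0.30 over the 27 measured genes from Noct to Mbnl1, -0.34 over 28 from Ptx3 to Hdgf, -0.21 over 104 from Lmna to Notch2 and -0.30 over 53 from Extl2 to Gtf2b. Beyond Usp33 all 12 measured genes were below 0, with a median of -0.33. A running median was taken over 21 neighbouring measured genes, so adjacent positions share most of their genes. On the other chromosomes it was below 0 at 35.2% of 6737 positions. On chromosome 3, with the members counted in, it was below 0 at each of its 362 positions. It ran there from -0.47 around Cp, which lies between Pde7a and Hps3, to -0.10 around Ilf2, in the gap between Lmna and Notch2. Single genes departed from this level by far more than the stretches did, at -2.09 for Cth and 1.88 for Postn.

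**Figure D3:**
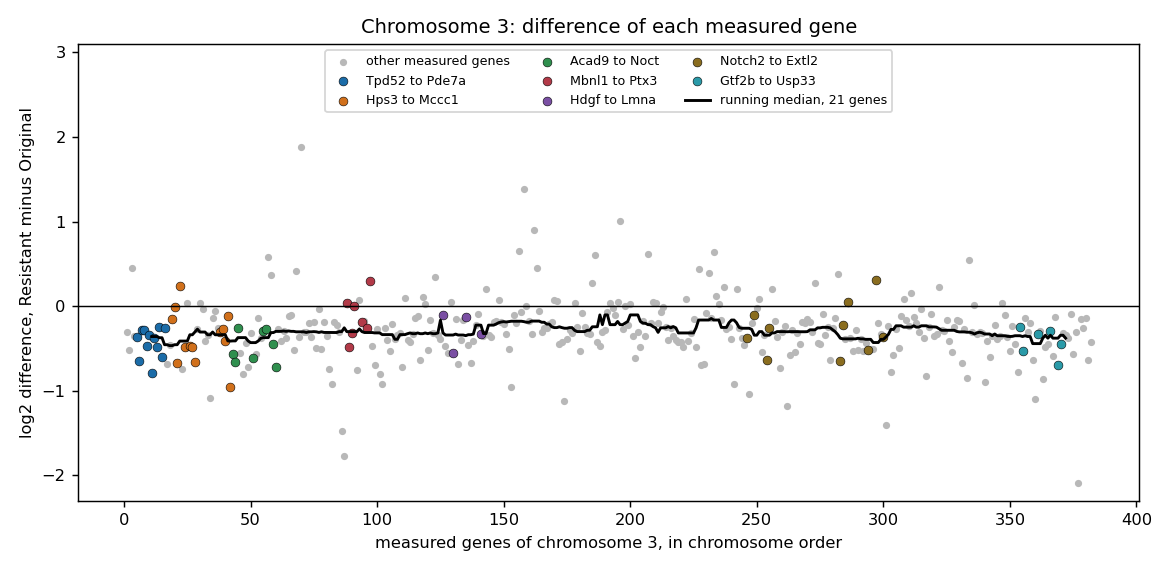
Log2 difference (resistant minus original) of the 382 measured genes of chromosome 3 in chromosome order, with members in colour by stretch, other genes in grey and the running median over 21 genes as a line. The line stays below 0 throughout, between -0.47 and -0.10, inside and outside the coloured stretches.

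Set beside the other chromosomes, the median of all 382 measured genes of chromosome 3, members included, was the lowest of the 20 chromosomes with measured genes (1 to 19 and X), at -0.30. The next lowest were chromosome 19 at -0.15 and chromosome 9 at -0.10, and the highest was chromosome 15 at 0.29. The 7119 measured genes of the other chromosomes together had a median of 0.03. Between arrays of the same number the chromosome 3 median was -0.27 and -0.35. Because this chromosome was taken up for its lower runs in this same difference, nothing is read from its place among the chromosomes.

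**Figure D4:**
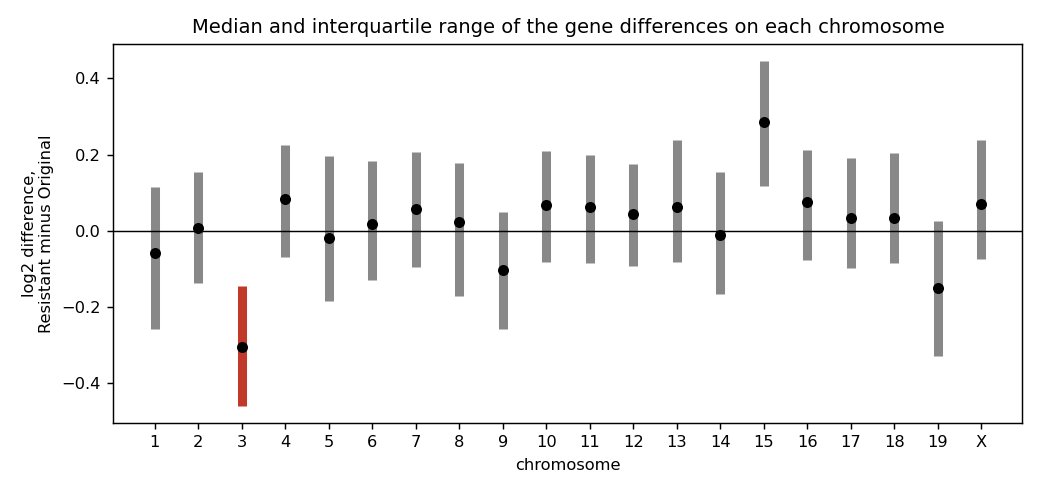
Median (point) and interquartile range (bar) of the log2 differences, resistant minus original, over the measured genes of each chromosome. Chromosome 3 (red) has a median of -0.30 and chromosome 15 of 0.29, and the other medians lie between -0.15 and 0.08.

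The members' other probe sets used the same arrays and the same difference, so they are a description too. The array carried 136 probe sets for the 60 genes, of which 123 passed the filter. The 63 that were not chosen to stand for a gene cover 39 genes, had a median of -0.31 and were below 0 in 55 cases. In 32 of these 39 genes every retained probe set was below 0. The members were somewhat brighter than the rest, with a median signal of 658 against 520.1 over all measured genes.

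A measure that did not choose the members is the difference between arrays numbered 2 and 1 within the groups. In the limma fit with group and replicate number as terms, 4 of 60 members passed (adjusted p under 0.05), which is 6.67% beside 6.36% of all probe sets. Of these, 2 were higher and 2 lower on the arrays numbered 2, beside 2.36% and 4% of all probe sets. Mme was lower on the arrays numbered 2 (-1.82, limma adjusted p = 1.91e-23), as was Pde7a (-0.87, limma adjusted p = 0.00605). Ptx3 (0.42, limma adjusted p = 0.0245) and Fabp5 (0.33, limma adjusted p = 0.0459) were higher. That fit left 1 residual degree of freedom, and its p-values rest on a spread estimated across probe sets, which varies with mean signal. The members' median was -0.04 in the original arrays and -0.16 in the resistant ones, against -0.04 and -0.06 over all measured genes, and 60% of the members were below 0 in the mean of both groups, against 57.7% of all measured genes.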

How the data were processed

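RNA of 2 original and 2 resistant NF639 arrays (Affymetrix Mouse 430A 2.0) was analysed. The authors deposited linear signal intensities made with MAS5, per the submitters' processing notes, which name no version. Of 22690 probe sets, 64 were controls. Platform annotation gave 1 symbol to 20380 probe sets, several to 691 and none to 1555, and 20351 matched the GRCm38.p6 gene table, used for names, chromosome and gene order only.

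Each array was scaled so that the 2% trimmed means were equal, and log2(signal + 3) was taken. Fold changes are on this scale and understate those of dim genes. A filter kept probe sets with a mean log2 value at or above the 40th percentile, which corresponds to 49.1 in signal. limma 3.58.1 in R 4.3.3 (lmFit, eBayes with trend) was fitted to all 13576 retained probe sets with Benjamini-Hochberg adjustment, and was tested on simulated data. The groups came from the sample titles.

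The members, stretches, filters and alternatives were chosen with earlier results of these data known. All 60 members are named, and of other genes those with the lowest and highest difference within a stretch. Genes between stretches, the windows shown and the running median were chosen after values were seen. Alternatives were other pseudocounts, filters and scalings, another summary of probe sets, another variance model, a replicate block and leaving out each array.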

Additional observations from a re-analysis of the deposited data

How the results depend on the processing

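The members' median stayed between -0.24 and -0.46 in every alternative run, with 53 to 56 of 60 members below 0 (46 of the 50 left by a filter at the 60th percentile), and 48 members were below 0 and 2 (Ptx3 and S1pr1) above 0 in each setting that measured them. Snx16, Pde7a, Hltf, Tbl1xr1, Mbnl1, Mme, Hdgf, Cct3, Man1a2 and Sort1 took both signs. Leaving out 1 array at a time gave members' medians from -0.24 to -0.46. The stretch medians then ran from -0.20 to -0.68 for Tpd52 to Pde7a, -0.25 to -0.46 for Hps3 to Mccc1, -0.39 to -0.49 for Acad9 to Noct, -0.044 to -0.25 for Mbnl1 to Ptx3, -0.08 to -0.39 for Hdgf to Lmna, -0.22 to -0.42 for Notch2 to Extl2 and -0.26 to -0.52 for Gtf2b to Usp33. The median of Hps3 to Mccc1 was -0.29 with a filter at the 60th percentile, that of Acad9 to Noct -0.41 with a pseudocount of 64 and that of Mbnl1 to Ptx3 -0.14 with arrays scaled to a common median.

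The count of called probe sets (23) was 5 without a filter, 10 with a filter at the 60th percentile, 8 after quantile normalisation, 36 with a common median and 0 in limma without a trend (922 at an unadjusted p under 0.05). It was 75 to 155 with 1 array left out. The labels do not tie a replicate number to an experiment, and same-numbered arrays deviated together (correlation 0.352 across probe sets). With the replicate number as a block 710 probe sets passed, 12 of them members where 0 passed without it. Those p-values rest on a spread pooled across probe sets, as said above. For replicate 2 minus replicate 1, 863 probe sets passed, 271 without a filter and 1543 with a common median, where the members' median was 0.076 in place of -0.12. The number of arrays limits all of these values.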
